A study of Canis lupus familiaris with 18 samples.

Results

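The perilipins, the CIDE proteins and the lipid droplet assembly factors FITM2 and seipin (BSCL2) were followed in the fat of lean and obese beagles. The 10 genes were PLIN1 to PLIN5, CIDEA, CIDEB, CIDEC, FITM2 and BSCL2, of 15115 genes with their own probe set on the array (the short probes on the array that together read 1 transcript). All probe sets whose single platform symbol was one of these names were taken, 23 of 29254, whatever their values. The animals were 9 intact female beagles, 4 years old, all given Purina Pro Plan Performance Formula. For 24 weeks 4 control dogs (dogs 1, 3, 4 and 9) were kept lean on a ration matched to their weight at the outset, and 5 dogs (dogs 2, 5, 6, 7 and 8) could eat ad libitum and became obese. Subcutaneous and gonadal fat of each dog was taken after an overnight fast, which gives 18 Affymetrix canine arrays in 4 groups. The labels tie both depots to the animal by its number, so each dog is an animal of its own and the 2 arrays of a dog are not independent.

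An adipocyte stores triglyceride in 1 large droplet whose surface is coated by perilipins. PLIN1 is the main coat protein of the adipocyte droplet and holds the lipases off until hormones signal a fast, PLIN2 and PLIN3 coat droplets in most cell types, PLIN4 coats newly forming droplets, and PLIN5 serves tissues that burn fat. CIDEA, CIDEB and CIDEC sit where droplets touch and move lipid from the smaller into the larger one, with CIDEC known from white fat, CIDEA from brown fat and from white fat of some species, and CIDEB from liver. FITM2 and seipin act earlier, in the endoplasmic reticulum where droplets are born, and loss of seipin causes a near absence of body fat.

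The values are GCRMA expression values on a log2 scale, on which a step of 1 is a doubling, and a log2 value of 4 is used as a floor below which a probe set is not read as a level. Of the 23 probe sets 17, from 8 genes, reached the floor in at least 4 arrays and were tested. These were both sets of PLIN1, all 4 of PLIN2, 1 of 2 of PLIN3, all 3 of PLIN4, both of CIDEA, the only one of CIDEC, the only one of FITM2 and 3 of 4 of BSCL2. PLIN5 and CIDEB had no set that passed. The 3 PLIN5 sets lay below the floor in 18 of 18 arrays, apart from 1 value of 4.29 in the gonadal fat of control dog 3. CIDEB lay between 2.48 and 2.87. The second PLIN3 set (CfaAffx.28940.1.S1_at) reached the floor in 3 gonadal arrays only, with 4.09 and 4.91 in control dogs 1 and 4 and 4.30 in ad libitum dog 8. The fourth BSCL2 set (CfaAffx.24042.1.S1_at) stayed between 2.20 and 2.28. Sets of 1 gene share their target, so they are not separate evidence.

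**Figure D1:**
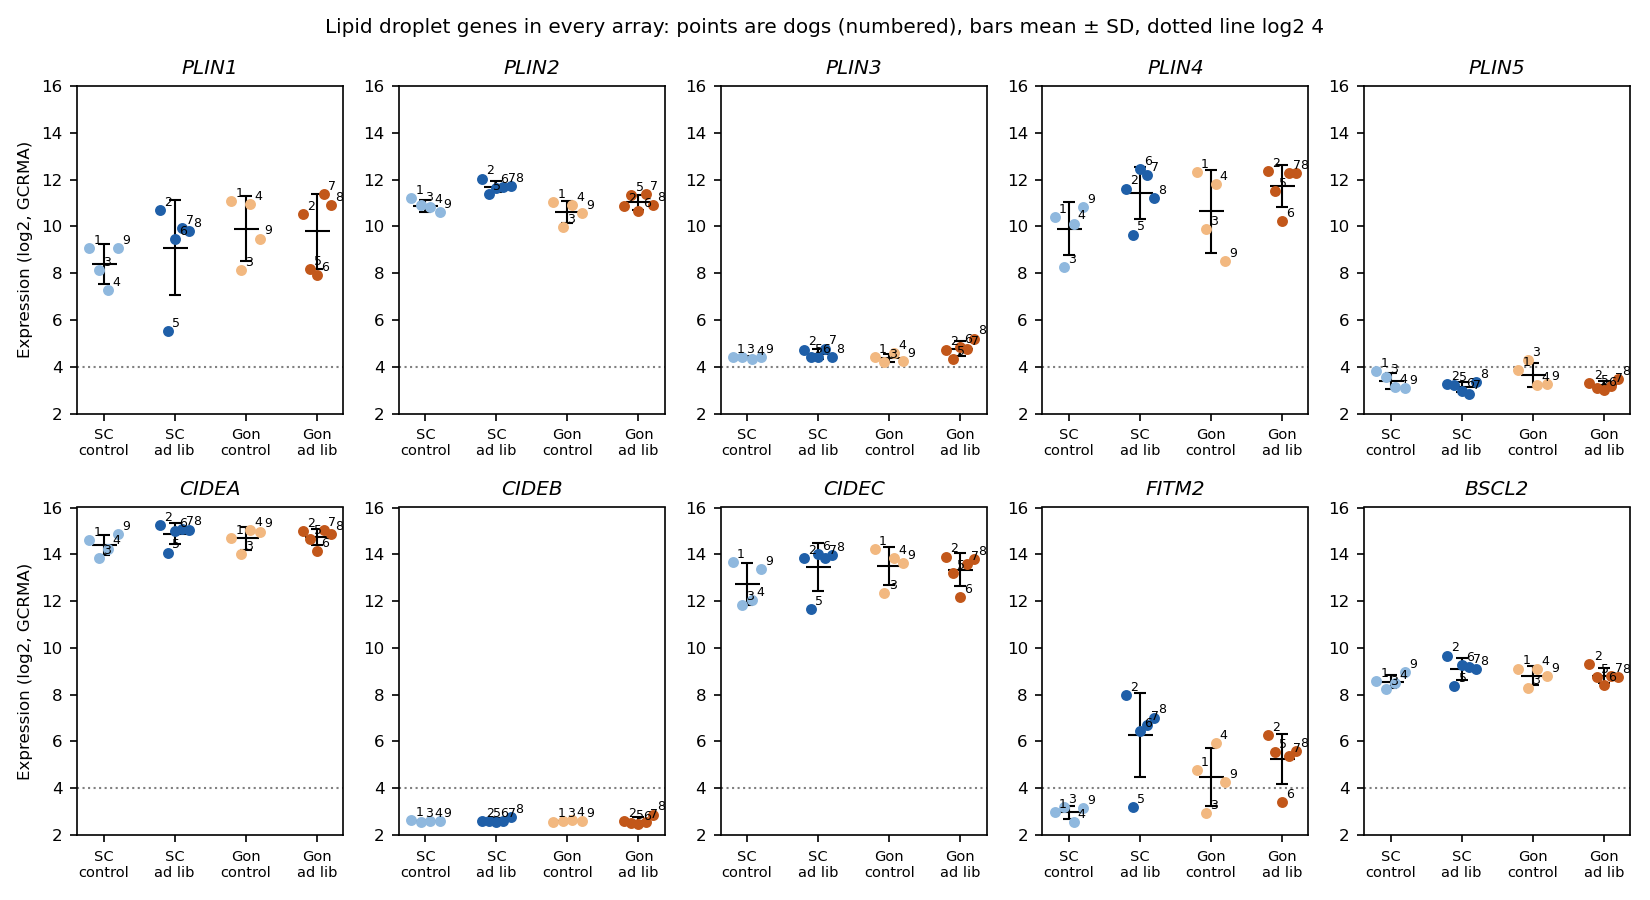
Expression (log2, y axis) of the 10 genes in every array, 1 panel per gene, by depot (SC, subcutaneous; Gon, gonadal) and feeding group, each gene by its brightest probe set. Points are dogs, labelled with the dog number, black bars are the group mean ± SD, and the dotted line is the floor of log2 4. FITM2 lies below the floor in all 4 subcutaneous control arrays, and the ad libitum dog 5 lies below the other subcutaneous ad libitum dogs for PLIN1, CIDEA and CIDEC.

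Defining markers of the labelled tissue were present. The adipocyte genes ADIPOQ, FABP4, LPL, PPARG and LEP were above the floor in all 18 arrays. Of the other adipocyte markers SLC2A4 was at or above it in 6 arrays. A marker score was taken as the median log2 value over a list. The skeletal muscle score stood 8.83 and 6.39 log2 units above the median array in subcutaneous fat of control dogs 3 and 4 and 6.77 above it in gonadal fat of ad libitum dog 2. The score of ciliated cells stood 5.76 above it in gonadal fat of ad libitum dog 6 and 3.23 above it in subcutaneous fat of control dog 4. UCP1, the uncoupling protein of brown fat, was at 10.01 in subcutaneous fat of ad libitum dog 2 and at most 3.25 elsewhere. As a measure of RNA length, the signal at the 3' end of actin minus that at its 5' end, larger for shorter RNA, was 4.75 ± 1.02 (SD, n = 4) in subcutaneous control arrays and 3.49 ± 0.77 (SD, n = 5) in subcutaneous ad libitum arrays. In gonadal fat it was 2.91 ± 0.91 (SD, n = 4) in control and 3.31 ± 0.91 (SD, n = 5) in ad libitum arrays. In bulk tissue fewer cells of a type and less RNA per cell cannot be told apart.

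With ad libitum feeding FITM2, the droplet assembly factor, was the 1 member past the adjusted threshold of 0.05 in subcutaneous fat, where it rose. The 4 control dogs had FITM2 values of 2.99, 3.20, 2.57 and 3.14 (dogs 1, 3, 4 and 9), all below the floor. Ad libitum dogs 2, 6, 7 and 8 had 7.99, 6.45, 6.72 and 7.02, and dog 5 had 3.20. So 4 of 5 obese dogs lay 2.45 to 3.99 log2 units above the floor, and dog 5 lay below it with the 4 lean dogs, which makes the groups overlap. The mean difference was 3.30 ± 0.79 (limma estimate ± standard error, adjusted p = 0.0422). Because the control mean lies below the floor, the ratio of the 2 group means is read as at least 4.84-fold, with no allowance for their error. With every value below the floor set to it the difference was 2.44 ± 0.62 (limma adjusted p = 0.0492).

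The FITM2 call was lost in several other fits, in which most calls over all probe sets were lost too. Leaving out any one of dogs 1, 2, 3, 4, 7, 8 or 9 ended it, with limma adjusted p values up to 0.132 and differences no smaller than 2.87, whereas without dog 5 the difference was 4.07 (adjusted p = 0.00292). With the actin signal as a covariate the difference was 2.17 ± 0.73 (limma, adjusted p = 0.259). Once the 4 arrays with muscle or ciliated-cell signal were left out it was 3.21 ± 1.00 (adjusted p = 0.193). Control dogs 1 and 9, whose arrays have no such signal, were also below the floor. Their subcutaneous actin values were 4.55 and 5.33, against 2.61 to 4.4 in the ad libitum group. Without the UCP1 array of dog 2, which also has the highest FITM2 value, the FITM2 difference was 2.87 (limma adjusted p = 0.119). Over all 21484 probe sets the 506 calls of this comparison became 1 with the actin covariate. They became 5 without the 4 arrays and 36 without the UCP1 array. Without any one of dogs 1, 2, 3, 4, 7, 8 or 9 they became 3 to 98. The cause of these losses was not tested.

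Across all members the 5 obese dogs had the higher mean in subcutaneous fat for 17 of 17 tested probe sets, and the median difference was 0.73, against 0.01 over all probe sets, of which 51.1% were positive. The sets come from 8 genes read in the same arrays, so they are not 17 separate observations. By the brightest set of each gene it was 8 of 8. The members were chosen with earlier results of these data known. Only 1 of 17 passed the adjusted threshold of 0.05, beside 2.36% of all probe sets. At an unadjusted p below 0.05 it was 7 of 17 against 23.7% of all, and the 7 came from PLIN2, CIDEA, FITM2 and BSCL2 only. Of the marker scores only that of stromal progenitors separated the feeding groups here. It (7 of 7 markers above the floor) was 10.9 to 11.9 in control and 8.48 to 10.5 in ad libitum arrays. Scores of the other cell types overlapped between the groups. That of adipocytes (10 of 11 markers on the array, 9 of them above the floor in the mean) was 10.9 to 12.2 and 11 to 12.5. Only dog 5, at 10.98, made the adipocyte scores overlap. Obese dogs 2, 6, 7 and 8 had 12.39, 12.54, 12.42 and 12.46, above every lean dog (at most 12.16). Several members showed the same order of dogs. That of macrophages was 7.72 to 9.23 and 7.37 to 9.57. The part of these scores in the result was not tested.

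**Figure D2:**
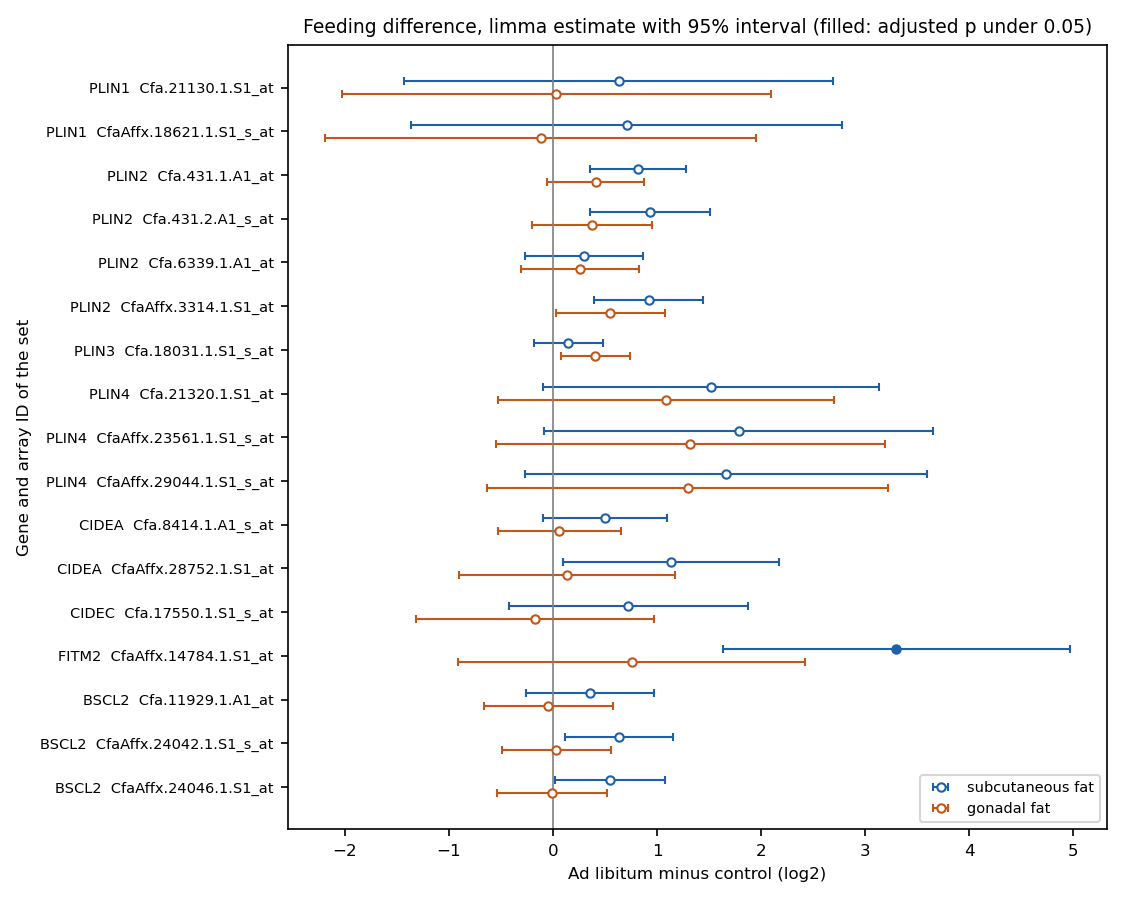
Ad libitum minus control (log2, x axis) for the 17 tested probe sets (y axis), with the 95% interval from limma, in subcutaneous (blue) and gonadal fat (orange). A filled point has an adjusted p below 0.05, which only FITM2 in subcutaneous fat reached, at 3.30. All 17 subcutaneous estimates lie to the right of 0.

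Seipin differed by less. The 2 bright BSCL2 sets, which track each other with r = 0.977 over the 18 arrays, gave 0.64 ± 0.25 (CfaAffx.24042.1.S1_s_at, limma adjusted p = 0.14) and 0.55 ± 0.25 (CfaAffx.24046.1.S1_at, adjusted p = 0.197) in subcutaneous fat. For the first, control dogs 1, 3, 4 and 9 had 8.63, 8.28, 8.24 and 8.89, and ad libitum dogs 2, 5, 6, 7 and 8 had 9.58, 8.48, 9.28, 9.20 and 9.20. Dog 5 again lay among the lean dogs, and the other obese dogs lay above all of them. The remaining, dim set (Cfa.11929.1.A1_at) differed by 0.36 ± 0.29 and had a control mean below the floor.

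Among the coat proteins PLIN2 came nearest to the threshold in subcutaneous fat. In the brightest of its sets (Cfa.431.1.A1_at) control dogs 1, 3, 4 and 9 had 11.20, 10.90, 10.84 and 10.59, and ad libitum dogs 2, 5, 6, 7 and 8 had 12.04, 11.40, 11.66, 11.70 and 11.71. Every obese dog lay above every lean dog, dog 5 included. The difference was 0.82 ± 0.22 (limma adjusted p = 0.0576). Set CfaAffx.3314.1.S1_at gave 0.92 ± 0.25 (adjusted p = 0.0591), also with groups that did not overlap, and Cfa.431.2.A1_s_at gave 0.93 ± 0.27 (adjusted p = 0.0732) with groups that did. Groups without overlap were seen in 2 of 17 member sets, beside 10.1% of all probe sets.

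The fourth PLIN2 set, Cfa.6339.1.A1_at, did not follow the others. It gave 0.30 ± 0.27 (limma adjusted p = 0.512) in subcutaneous fat. Over the 18 arrays its r with the other 3 sets was 0.572 to 0.651, while theirs with one another was 0.955 to 0.977. Which PLIN2 transcripts each set reads was not analysed here.

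PLIN1 had the widest range of the members over the 18 arrays, from 5.54 to 11.39 in its brighter set. In subcutaneous fat that set (CfaAffx.18621.1.S1_s_at) read 9.06, 8.12, 7.28 and 9.06 in control dogs 1, 3, 4 and 9, and 10.71, 5.54, 9.46, 9.94 and 9.81 in ad libitum dogs 2, 5, 6, 7 and 8. In 4 of 5 obese dogs PLIN1 lay above every lean dog, and in dog 5 it lay below all of them. The mean difference was 0.71 ± 0.98 (limma adjusted p = 0.686), with a 95% interval from -1.36 to 2.78. The other set gave 0.63 ± 0.97.

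PLIN4 showed the widest differences after FITM2, without passing the test. Its brightest set (Cfa.21320.1.S1_at) read 10.40, 8.27, 10.12 and 10.84 in the subcutaneous fat of control dogs 1, 3, 4 and 9, and 11.61, 9.65, 12.43, 12.18 and 11.22 in ad libitum dogs 2, 5, 6, 7 and 8. Only dog 5 overlapped with the lean dogs. The difference was 1.52 ± 0.76 (limma adjusted p = 0.237), and the other sets gave 1.79 ± 0.88 and 1.66 ± 0.91. PLIN3 read 4.33 to 4.42 in lean and 4.40 to 4.78 in obese dogs, close to the floor, with a difference of 0.15 ± 0.16.

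The fusion proteins CIDEA and CIDEC were also higher in the mean and below the threshold. CIDEA (CfaAffx.28752.1.S1_at) read 13.42, 12.53, 13.13 and 14.13 in subcutaneous fat of control dogs 1, 3, 4 and 9, and 15.08, 12.76, 14.73, 14.90 and 14.71 in ad libitum dogs 2, 5, 6, 7 and 8. The difference was 1.13 ± 0.49 (limma adjusted p = 0.179), and in its brighter set (Cfa.8414.1.A1_s_at) 0.50 ± 0.28. Values of the latter reach 15.23, near the top of the array's range of 16.51. CIDEC read 13.67, 11.85, 12.05 and 13.35 in the lean dogs and 13.82, 11.65, 14.00, 13.83 and 13.97 in the obese dogs in the same order, a difference of 0.73 ± 0.54 (adjusted p = 0.424). In CIDEC too dog 5 was the lowest of the 9 dogs and the other 4 obese dogs were above all lean dogs.

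Dog 5 thus set the spread of several members. In the fit without dog 5 the number of member sets past the threshold in subcutaneous fat rose from 1 to 6 of 17, beside 12.6% of all probe sets. The 6 were FITM2, 3 PLIN2 sets, CIDEA and BSCL2. In that fit PLIN2 (Cfa.431.1.A1_at) stood at 0.90 ± 0.23 (limma adjusted p = 0.0234), CIDEA (CfaAffx.28752.1.S1_at) at 1.55 ± 0.43 (adjusted p = 0.0318) and BSCL2 (CfaAffx.24042.1.S1_s_at) at 0.80 ± 0.24 (adjusted p = 0.0398). PLIN1 stood at 1.60 ± 0.75 (adjusted p = 0.161) and CIDEC at 1.18 ± 0.48 (adjusted p = 0.113). Dog 5 was singled out after its values were seen, and no label sets it apart, so the fit over all dogs is the one reported. Its subcutaneous array had the highest actin 3' minus 5' signal of its group (4.4). It also had the highest macrophage (9.57) and stromal progenitor (10.55) scores there and the lowest adipocyte score (10.98). The part of these values in the result was not tested.

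In gonadal fat no member passed the threshold for feeding. Of 17 member sets 0 passed, beside 0% of all 21484 probe sets tested, with a smallest limma adjusted p of 0.9999. At an unadjusted p below 0.05 it was 2 of 17 member sets against 2.47% of all. The median difference was 0.26, with 13 sets positive and 4 negative.

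FITM2 in gonadal fat read 4.76, 2.95, 5.94 and 4.27 in control dogs 1, 3, 4 and 9, and 6.26, 5.53, 3.43, 5.37 and 5.59 in ad libitum dogs 2, 5, 6, 7 and 8. Here 3 of 4 lean dogs had a value above the floor, unlike in their subcutaneous fat, and dog 5 lay with the other obese dogs while dog 6 lay below the floor. The difference was 0.76 ± 0.79, with a 95% interval from -0.91 to 2.42. Of the 2 sets past the unadjusted threshold one was PLIN2 (CfaAffx.3314.1.S1_at), with a difference of 0.55 ± 0.25. Its values were 10.12, 8.93, 10.16 and 9.50 in lean and 10.11, 10.32, 10.09, 10.68 and 9.95 in obese dogs. The other was PLIN3, with a difference of 0.41 ± 0.16 on values of 4.20 to 5.20.

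PLIN4 differed by 1.09 ± 0.76 in gonadal fat (Cfa.21320.1.S1_at), with a 95% interval from -0.53 to 2.70. Control dogs 1, 3, 4 and 9 had 12.33, 9.90, 11.81 and 8.52, and ad libitum dogs 2, 5, 6, 7 and 8 had 12.35, 11.52, 10.24, 12.27 and 12.26. The lean dogs spread over almost 4 log2 units and 2 of them reached the level of the obese dogs. PLIN1, CIDEA, CIDEC and BSCL2 differed by -0.17 to 0.14 over their 8 tested sets in gonadal fat, with 95% intervals as wide as -2.19 to 1.95 for PLIN1. For PLIN1, CIDEA and CIDEC these intervals still hold the subcutaneous estimates, so differences of that size lie within the error of the gonadal estimates.

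The feeding differences of the depots were therefore compared directly, as the gonadal minus the subcutaneous difference. No member set passed (0 of 17, beside 0% of all probe sets, smallest limma adjusted p = 0.2544 among all), and 1 of 17 had an unadjusted p below 0.05, beside 6.26% of all. That one was FITM2, at -2.54 ± 1.12 (limma adjusted p = 0.748). It takes in subcutaneous control values below the floor, and with those set to the floor it was -1.83 ± 0.87 (adjusted p = 0.74). The other estimates were negative for 15 of 16 sets and positive for PLIN3, at 0.26 ± 0.22. The largest after FITM2 were CIDEA at -1.0 ± 0.69 and CIDEC at -0.90 ± 0.77. A smaller response in gonadal than in subcutaneous fat was thus not shown for any member at this number of dogs.

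Since the dog, not the array, was fed, both depots of each dog were also averaged and the 9 dog means compared. FITM2 then differed by 2.03 ± 0.52 (limma adjusted p = 0.248, unadjusted p = 0.00342). PLIN2 differed by 0.74 ± 0.18 (CfaAffx.3314.1.S1_at) and 0.62 ± 0.16 (Cfa.431.1.A1_at), each with a limma adjusted p of 0.248, and PLIN4 by 1.30 ± 0.50 to 1.55 ± 0.55 over its sets. In those PLIN2 sets the dog means of lean and obese dogs did not overlap. Those of FITM2 did not overlap as deposited (3 of 17 member sets in all, beside 5.26% of all probe sets), but with values below the floor set to it lean dog 4 stood at 4.97 and obese dog 5 at 4.76, so the groups overlapped. The FITM2 difference was then 1.52 ± 0.44 (limma adjusted p = 0.257). Of the member sets 0 of 17 passed, beside 0% of all probe sets, and 8 of 17 had an unadjusted p below 0.05, beside 14% of all. The 8 came from FITM2, PLIN2, PLIN3 and PLIN4 only. All 17 differences were positive (8 of 8 genes by the brightest set), with a median of 0.34 against 0.01 over all probe sets.

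Between depots 1 of the 4 PLIN2 sets passed in the obese dogs, the set Cfa.6339.1.A1_at that does not follow the others, and the brightest PLIN2 set did not. That was 1 of 17 member sets, beside 7.19% of all probe sets. Set Cfa.6339.1.A1_at was lower in gonadal than in subcutaneous fat of every dog. In ad libitum dogs 2, 5, 6, 7 and 8 it read 10.01, 9.57, 9.45, 9.43 and 10 in subcutaneous and 8.38, 8.50, 9.24, 8.73 and 8.13 in gonadal fat. The depots did not overlap, and the difference was -1.09 ± 0.25 (limma adjusted p = 0.0164), or 2.13-fold lower in gonadal fat. In control dogs 1, 3, 4 and 9 it read 9.90, 9.09, 9.40 and 9.19 in subcutaneous and 8.17, 7.63, 8.74 and 8.83 in gonadal fat, a difference of -1.05 ± 0.28 of the same size that missed the threshold (adjusted p = 0.0547). The interaction for this set was -0.04 ± 0.38.

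With the dog as a random block the difference in control dogs passed (limma adjusted p = 0.0299), and with the dog as a fixed block it did not (adjusted p = 0.0863), whereas in obese dogs it passed under both (0.00855 and 0.0385). The call in obese dogs was lost without dog 2 (adjusted p = 0.069), dog 5 (0.0552) or dog 8 (0.106). According to the labels only the subcutaneous arrays had been submitted before, and a difference between depots and one between batches of arrays cannot be told apart. The mesothelium score (3 of 6 markers on the array) also followed the depot in obese dogs, at 2.88 to 3.11 in subcutaneous and 6.51 to 9.28 in gonadal fat. In control dogs it overlapped, at 2.77 to 7.08 in subcutaneous and 6.1 to 8.38 in gonadal fat. The 7.08 was in subcutaneous fat of dog 4. The part of this score in the result was not tested.

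**Figure D3:**
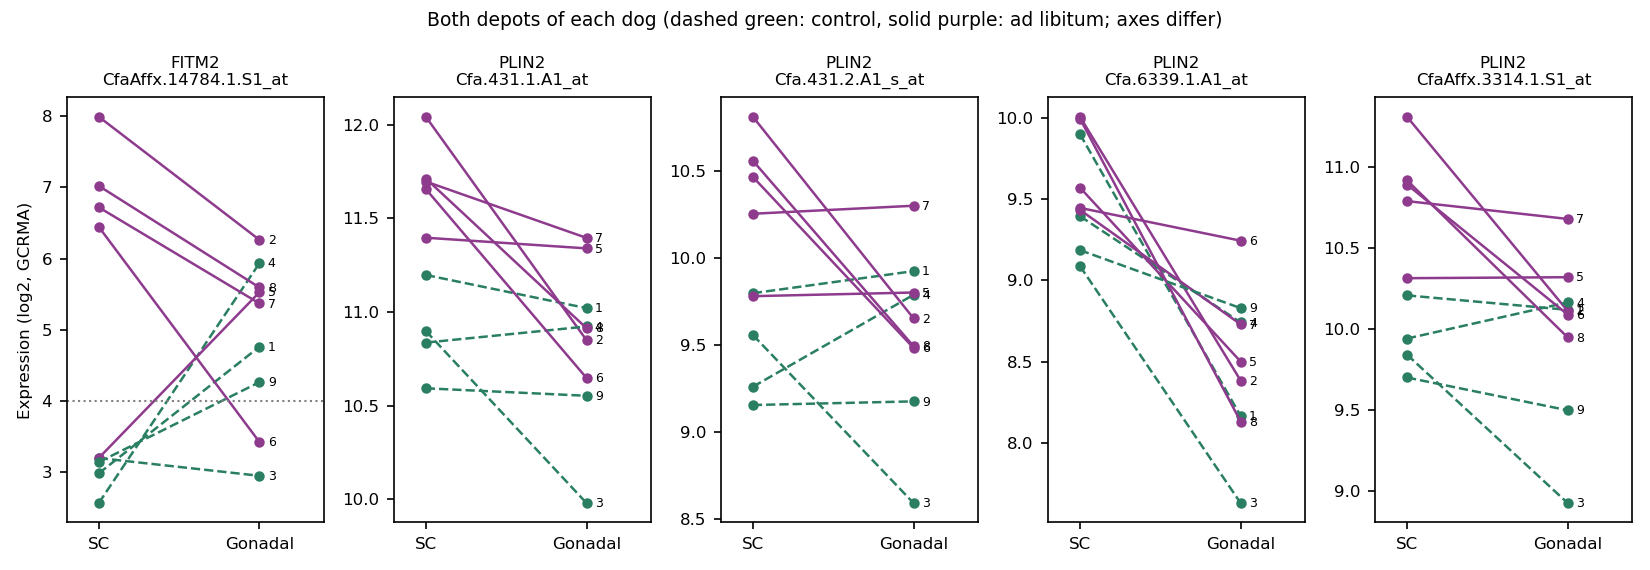
Expression (log2, y axis, scales differ between panels) of FITM2 and of the 4 PLIN2 sets in subcutaneous (SC) and gonadal fat of each dog, with a line joining the depots of a dog (dashed green, control; solid purple, ad libitum; numbers are dogs). PLIN2 set Cfa.6339.1.A1_at falls from left to right in all 9 dogs. FITM2 is higher in gonadal fat in 3 of 4 control dogs and lower there in 4 of 5 ad libitum dogs.

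The other PLIN2 sets were lower in gonadal fat of obese dogs by 0.61 to 0.67 on the log2 scale in the mean. Set Cfa.431.1.A1_at was lower in 5 of 5 obese dogs, at -0.67 ± 0.21 (limma adjusted p = 0.0587, and 0.0322 with the dog as a random block). Its depots were apart by a narrow margin, with a lowest subcutaneous value of 11.397 (dog 5) and a highest gonadal one of 11.396 (dog 7). In control dogs the same set differed by -0.26 ± 0.23 and was lower in 3 of 4. Depots without overlap were seen in 2 of 17 member sets in obese dogs, beside 8.97% of all, and in 1 of 17 in control dogs, beside 13% of all.

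In control dogs 0 of 17 member sets passed, beside 2.92% of all probe sets. The unadjusted counts were 4 of 17 against 23.5% in obese and 1 of 17 against 20.4% in control dogs. All of these were PLIN2 sets, so they stand for 1 gene. FITM2 was higher in gonadal fat in 3 of 4 control dogs, by 1.5 ± 0.83 (limma adjusted p = 0.327), which is at least 1.39-fold with the subcutaneous mean set to the floor. In obese dogs it was lower in 4 of 5, by -1.04 ± 0.74 (adjusted p = 0.425). With values below the floor set to it the difference in control dogs was 0.74 ± 0.65.

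**Figure D4:**
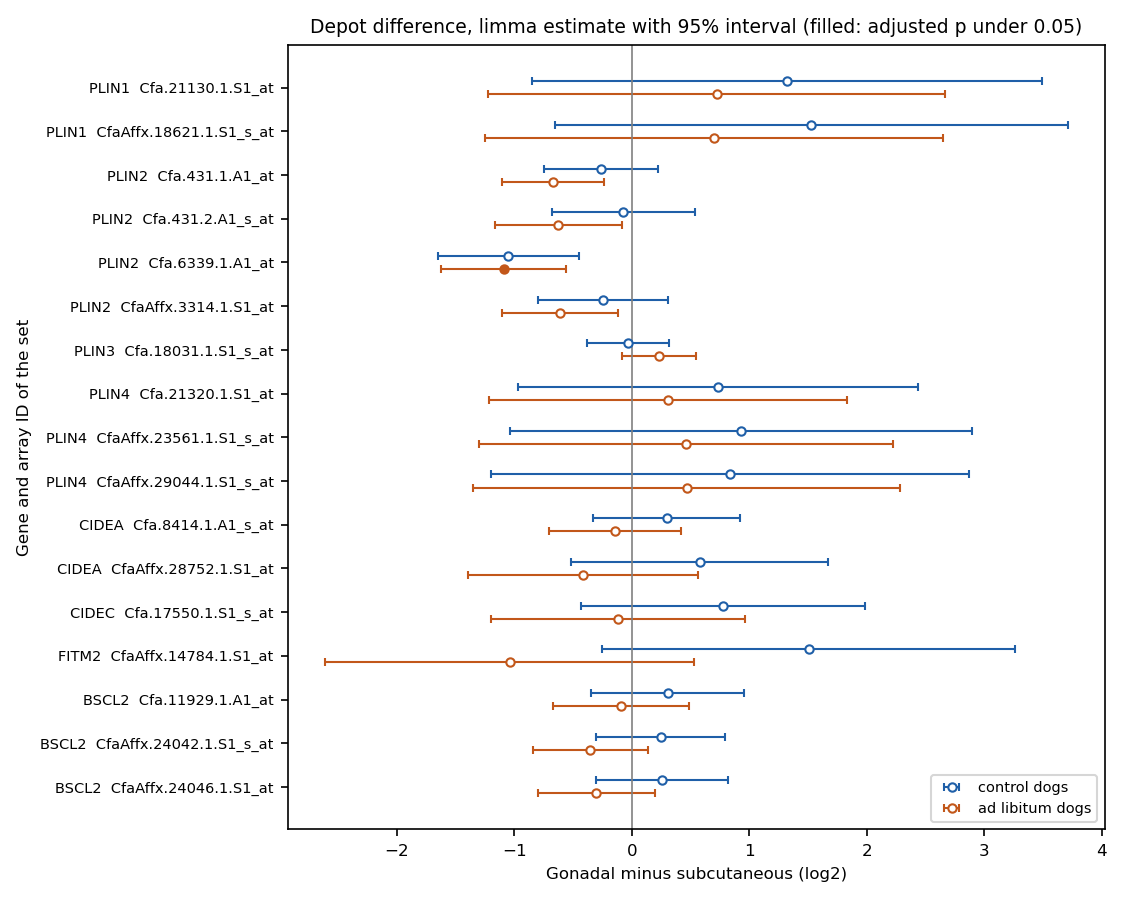
Gonadal minus subcutaneous (log2, x axis) for the 17 tested probe sets (y axis), with the 95% interval from limma, in control dogs (blue) and ad libitum dogs (orange). The filled point is PLIN2 set Cfa.6339.1.A1_at in ad libitum dogs, at -1.09, and its estimate in control dogs lies beside it at -1.05.

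PLIN1, CIDEA and CIDEC were higher in gonadal fat of the lean dogs in the mean, below the threshold. PLIN1 (CfaAffx.18621.1.S1_s_at) read 11.07, 8.13, 10.95 and 9.48 in gonadal fat of control dogs 1, 3, 4 and 9, above their subcutaneous value in 4 of 4 dogs, although by 0.01 or less in dog 3. The depot difference of PLIN1 was 1.53 ± 1.03 (limma adjusted p = 0.435). CIDEC read 14.21, 12.35, 13.82 and 13.64 there, also above the subcutaneous value in 4 of 4 dogs, and differed by 0.78 ± 0.57 (adjusted p = 0.478). In obese dogs CIDEC differed by -0.12 ± 0.51 and PLIN1 by 0.70 ± 0.92. PLIN4 differed by 0.74 ± 0.81 in lean and 0.31 ± 0.72 in obese dogs.

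Several members were low in the same arrays as the general adipocyte markers. The adipocyte score lay at 10.44 to 11.13 in 5 arrays and at 11.87 to 12.56 in the other 13. The 5 were subcutaneous fat of dogs 3, 4 and 5 and gonadal fat of dogs 3 and 6. These same 5 arrays were the 5 lowest of 18 for PLIN1, CIDEA, CIDEC and BSCL2. For CIDEC they lay at 11.65 to 12.34, and the next array was at 13.20. Of the 5 lowest arrays of PLIN4 they made up 4, of PLIN2 3 and of PLIN3 2. FITM2 lay below the floor in 7 arrays, where its values have no order, and the 7 included all 5. Of these 5 arrays 3 also had muscle or ciliated-cell signal (subcutaneous fat of dogs 3 and 4, gonadal fat of dog 6), while the arrays of dog 5 (subcutaneous) and dog 3 (gonadal) carried neither. The marker score holds none of the 10 genes.

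**Figure D5:**
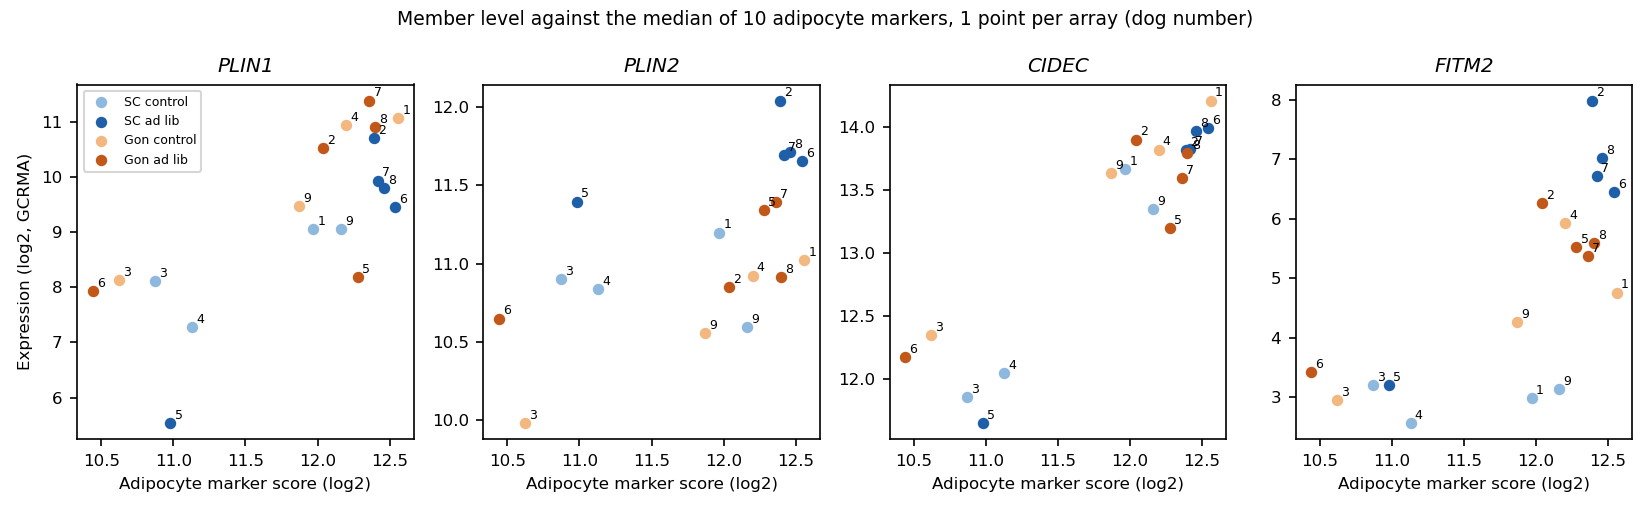
Expression (log2, y axis) of PLIN1, PLIN2, CIDEC and FITM2 against the adipocyte marker score (log2, x axis, the median of 10 marker genes), 1 point per array coloured by depot and feeding group and labelled with the dog. For CIDEC the 5 arrays with the lowest score, at most 11.13, lie at 12.34 or below and the other 13 at 13.20 or above, whereas PLIN2 values of the 2 sets of arrays overlap.

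Because the arrays fall into these clusters, correlations among members are given over all 18 arrays and within the 13 as descriptions. They share dogs, since each dog gave 2 arrays, and the arrays share their preparation. CIDEA and CIDEC had r = 0.907 over 18 arrays and 0.287 within the 13. PLIN1 and CIDEC had 0.866 and 0.591. FITM2 and BSCL2 had 0.862 and 0.754, and FITM2 and PLIN2 had 0.695 and 0.718. PLIN1 and PLIN2, the main coat protein and the general one, had 0.222 and 0.044. In FITM2 7 of the 18 values lie below the floor, and their order counts in these r. So the likeness of CIDEA to CIDEC was mostly between the clusters, and that of FITM2 to BSCL2 and PLIN2 was seen within the 13 arrays too.

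Of 8655 other genes, the 3 with the pattern most like each member over the 18 arrays are given by their r, with no test. FITM2 was most like AKTIP (r = 0.956, and 0.957 within the 13 arrays), ECI1 (0.955 and 0.934) and DPH3 (0.952 and 0.964). BSCL2 was most like MRPL40 (0.976 and 0.951), FAHD2A (0.964 and 0.924) and AGPAT2 (0.963 and 0.931), an acyltransferase of triglyceride synthesis. PLIN4 was most like LIPE (0.953 and 0.914), the hormone-sensitive lipase, then GORASP1 (0.951 and 0.935) and TINAGL1 (0.949 and 0.951).

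PLIN1 was most like NAA50 (r = 0.917, and 0.845 within the 13 arrays), GPAT3 (0.906 and 0.782) and GPD1 (0.904 and 0.786), the last also one of the adipocyte markers. PLIN2 was most like LMF1 (0.903 and 0.870), NCEH1 (0.887 and 0.883) and LAP3 (0.882 and 0.801). CIDEC was most like the triglyceride lipase PNPLA2 (0.957 and 0.672), the adipocyte regulator PPARG (0.946 and 0.374) and IDO2 (0.945 and 0.651). CIDEA was most like GPC3 (0.963 and 0.758), CCDC160 (0.959 and 0.899) and LOC476006 (0.949 and 0.688). PLIN3, near the floor, reached no more than 0.718 (MFN2), 0.716 (EPM2A) and 0.706 (CRIP2).

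Other genes of the droplet surface and of triglyceride assembly were taken from a list of 32, of which 22 were tested. With ad libitum feeding 3 of 22 rose in subcutaneous fat and 0 fell, beside 200 of 8656 genes called in that comparison. The 3 were the droplet-bound acyltransferase and lipase PNPLA3 at 4.41 ± 0.89 (limma adjusted p = 0.0245), the triglyceride-making enzyme DGAT2 at 2.35 ± 0.56 (adjusted p = 0.041) and ACSL1, which activates fatty acids, at 1.67 ± 0.36 (adjusted p = 0.0293). GPAM, the first acyltransferase of the pathway, stood at 3.57 ± 0.91 (adjusted p = 0.0502) with a control mean below the floor. All 3 calls were lost, with the same sign, in the limma fits with the actin signal as a covariate (4.09, 2.14 and 1.5, adjusted p = 0.153, 0.218 and 0.18) and without the 4 arrays with muscle or ciliated-cell signal (3.57, 2.00 and 1.60, adjusted p = 0.167, 0.164 and 0.183). They were also lost without the UCP1 array and without any one of dogs 1, 2, 3, 4, 7 and 8, those of DGAT2 and ACSL1 without dog 9 too. The lipases and their helpers LIPE at 1.80 ± 0.63, ABHD5 at 1.67 ± 0.60 and PNPLA2 at 0.56 ± 0.50 did not pass. The median over the 22 was 1.02, with 19 positive.

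In gonadal fat 0 of those 22 genes passed in the limma fit, beside 0 of 8656 genes, with a median difference of 0.12. PNPLA3 stood at 2.48 ± 0.89 there. Between depots 0 of 22 passed in lean and 0 of 22 in obese dogs, beside 255 and 645 of 8656 genes. For the interaction 0 of 22 passed, beside 0 of 8656 genes, with a median of -0.75. Of 7 transcription factors of fat cell genes 5 were tested. For feeding in subcutaneous fat 0 of the 5 passed, beside 200 of 8656 genes, and their median was 0.95. Among these, PPARA stood at 1.65 ± 0.59 (limma adjusted p = 0.117) and PPARG, which drives many droplet genes, at 0.75 ± 0.48 (adjusted p = 0.348). In the dog's RefSeq annotation PLIN4 and PLIN5 are direct neighbours, with 0 protein-coding genes between them, and PLIN3 lies 7 genes from PLIN5. On these arrays PLIN5 stayed below the floor in nearly every array, and the brightest PLIN4 set ranged from 8.27 to 12.43. Whether the PLIN5 transcript is absent or its sets do not read it cannot be told apart here.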

How the data were processed

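The authors deposited 1 table of log2 expression values, which they had computed with GCRMA (per the submitters' processing notes) for 43035 probe sets and 18 arrays. GCRMA corrects background by probe sequence and normalizes the arrays together. That the scale is log2 is read from the range (0.68 to 16.51, array medians 3.65 to 3.87). The sources used here name neither the base nor the GCRMA version.

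Probe sets with log2 of at least 4 in at least 4 arrays were tested (21484, of 8656 genes). limma 3.58.1 in R 4.3.3 fitted 4 group means over 18 arrays, with no dog block (14 residual degrees of freedom, 2.54 added by moderation), and separately the means of the 2 depots of 9 dogs. All limma tests were two-sided, and p values were adjusted by Benjamini-Hochberg within each comparison. Depots are paired by the animal number in the labels. Dogs are nested in feeding, so a fixed block cannot be fitted for the feeding comparisons. A fold against a group mean below 4 uses 4 and is written as at least, with no allowance for the error of the means. The number of arrays limits the precision.

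All members were named. A gene is represented by its brightest set over all arrays. Outside the members, up to 3 genes of the droplet list past the threshold per comparison, smallest p first, and the 3 genes with the highest r per member were named by rule, and others were added after their values were seen. The members and lists were chosen with earlier results of these data known. The fit was run on simulated data with normal errors drawn independently for each array. The simulation held no effect shared by the arrays of a dog and no outlying array, so it does not bear on these. Names come from the platform annotation, and 8 of 10 members matched RefSeq (UU_Cfam_GSD_1.0) by gene ID. The alternatives tried were dropping the filter or raising it to log2 6, quantile normalization, median centring, trended robust moderation, only the arrays compared, the dog as fixed or random block, actin signal as covariate, setting values below the floor to it, and leaving out dogs or arrays.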

Additional observations from a re-analysis of the deposited data

Results flagged for a closer look

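Within 68 groups of 4 or 5 arrays (17 probe sets, 4 groups each) 6 held an array far from the rest of its group, about 1 in 20 being expected by chance. In 5 of the 6 it was the subcutaneous array of ad libitum dog 5, the low one each time. PLIN1 read 5.06 there in set Cfa.21130.1.S1_at, where the nearest other obese dog read 9.12, and 5.54 in set CfaAffx.18621.1.S1_s_at, where the nearest read 9.46. CIDEC read 11.65 against 13.82. CIDEA read 14.07 against 15 in set Cfa.8414.1.A1_s_at and 12.76 against 14.71 in set CfaAffx.28752.1.S1_at. The sets of 1 gene share their target, so these are 3 genes in 1 array. The sixth was PLIN3 in subcutaneous fat of control dog 4, at 4.33 against 4.41, a gap of less than 0.1 log2 units near the floor. No member set showed a feeding difference that differed between depots past the adjusted threshold, or a depot difference that ran one way in every lean dog and the other way in every obese dog.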

How the results depend on the processing

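The count of member probe sets past the threshold for feeding in subcutaneous fat, 1, fell to 0 without the filter on low values, in a fit to only the arrays compared, with the actin signal as a covariate, when the 4 arrays with muscle or ciliated-cell signal were left out and without the UCP1 array (the last chosen after seeing the data). It ranged from 0 to 6 with 1 dog left out. For depot in control dogs the count of 0 became 1 with a filter at log2 6 and with the dog as a random replicate block, and ranged from 0 to 1 with 1 dog left out (1 without dog 6). For depot in obese dogs the count of 1 became 2 with median centring (PLIN2 set Cfa.431.1.A1_at at -0.74) and with the random replicate block, and 3 with the actin covariate, and ranged from 0 to 2 with 1 dog left out. The fixed replicate block kept 0 and 1, and the random block changed no other call. The counts for feeding in gonadal fat, for dog means and for the interaction were 0 under every alternative run. Setting values below log2 4 to 4, chosen after seeing the data, kept every member count. No called value changed sign. PNPLA3, DGAT2 and ACSL1, called for feeding in subcutaneous fat, stayed past the threshold in 9, 8 and 8 of 20 alternatives, at 3.57 to 5.08, 1.91 to 2.60 and 1.5 to 1.99. Over all probe sets the 506 subcutaneous feeding calls became 173 without a filter, 309 with quantile normalization, 60 with only the arrays compared, 1 with the actin covariate, 5 and 36 without the muscle or ciliated and the UCP1 arrays, and 3 to 2703 with 1 dog left out. The 627 depot calls in control dogs became 275, 412, 1346, 199 and 341 without a filter, with only the arrays compared, with the random block, with the actin covariate and without the 4 arrays, and the 1545 in obese dogs became 984 with only the arrays compared and 2495 with the random block. The range with 1 dog left out was 143 to 1050 and 497 to 1620. The cause of these changes was not tested, and the fits that left out arrays also had fewer of them. Signals below log2 4 limit FITM2 in lean subcutaneous fat, PLIN5 and CIDEB.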
